A study of Homo sapiens with 12 samples.

Results

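LCE1F, ABCA12, LY6D, SLPI, FXYD3 and GALNT5, listed together as squamous barrier genes, were followed across 6 groups of HCT116 cells. That name is the label of the list, and a barrier role of these genes in HCT116 cells was not tested. The 6 genes were chosen as a list because they were high after doxorubicin in these same libraries, so their doxorubicin differences are given as a description, with no test. All 6 were among the 16676 genes of the deposited table, and all 6 passed the low-value filter that left 15256 genes for testing. LCE1F and ABCA12 passed it through the doxorubicin libraries alone.

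HCT116 is an established human colon carcinoma line. It was sequenced as wild type (WT), as SPARCLE knockout (KO) and as SPARCLE over-expressing (OE) cells, SPARCLE being a long non-coding RNA that p53 induces. Each kind of cell spent 48 h either without drug (control) or with 1 µM doxorubicin (dox), an anthracycline that poisons topoisomerase II and breaks DNA, with 2 biological replicates, a and b, in each of the 6 groups. How the KO and OE cells were made, and whether each is 1 clone, is not given in the sources used here.

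Squamous epithelia such as epidermis build their barrier from proteins cross-linked under the plasma membrane, the cornified envelope, and from lipids that lamellar granules release between the cells. LCE1F belongs to the late cornified envelope family of the epidermal differentiation complex on chromosome 1. ABCA12 is the transporter that loads lipids into lamellar granules. LY6D is a small glycolipid-anchored surface protein of keratinocytes and other cells, and SLPI is a secreted inhibitor of leukocyte serine proteases on mucosal surfaces. FXYD3 regulates the sodium pump, and GALNT5 is one of the enzymes that start mucin-type O-glycosylation.

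In GENCODE v29 on GRCh38, LCE1F (ENSG00000240386) was a single exonic block of 357 bases on chromosome 1 from 152776372 to 152776728. ABCA12 (ENSG00000144452) spanned chromosome 2 from 214931542 to 215138428 on the minus strand, with 9416 exonic bases. GALNT5 (ENSG00000136542) lay on the same chromosome from 157257598 to 157314211. SLPI (ENSG00000124107) lay on chromosome 20 from 45252239 to 45254564, and FXYD3 (ENSG00000089356) on chromosome 19 from 35115879 to 35124324. FXYD3 overlapped the same-strand gene AC020907.6, so its reads are uncertain where the exons overlap, and reads of LCE1F may be shared with near-identical LCE1 copies.

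The 250 bases before the RefSeq start were read from the RefSeq promoter table (GRCh38.p14), which held 3 of the 6 genes. They are shown because LCE1F and ABCA12 had the most alike levels of any pair among the 6, and FXYD3 for comparison. RefSeq and GENCODE place the starts of these genes differently. The FXYD3 window lay inside the GENCODE span of the gene, and the LCE1F and ABCA12 windows ended before the GENCODE starts given above, LCE1F's by 1232 bases and ABCA12's by 198 bases. Capitals mark KLF motif letters (CACCC on either strand) and, in ABCA12, a p53 half-site.
LCE1F, chr1:152774890-152775139, plus strand: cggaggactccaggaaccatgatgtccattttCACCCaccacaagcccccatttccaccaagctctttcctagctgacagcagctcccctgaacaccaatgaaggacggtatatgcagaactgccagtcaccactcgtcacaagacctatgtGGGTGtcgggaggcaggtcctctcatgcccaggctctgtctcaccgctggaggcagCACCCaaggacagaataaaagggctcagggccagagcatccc
ABCA12, chr2:215138627-215138876, minus strand: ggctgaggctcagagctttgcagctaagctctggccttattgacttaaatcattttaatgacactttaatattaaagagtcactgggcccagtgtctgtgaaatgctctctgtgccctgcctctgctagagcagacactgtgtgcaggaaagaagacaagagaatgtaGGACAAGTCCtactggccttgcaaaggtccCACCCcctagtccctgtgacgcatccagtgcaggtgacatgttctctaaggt
FXYD3, chr19:35117750-35117999, plus strand: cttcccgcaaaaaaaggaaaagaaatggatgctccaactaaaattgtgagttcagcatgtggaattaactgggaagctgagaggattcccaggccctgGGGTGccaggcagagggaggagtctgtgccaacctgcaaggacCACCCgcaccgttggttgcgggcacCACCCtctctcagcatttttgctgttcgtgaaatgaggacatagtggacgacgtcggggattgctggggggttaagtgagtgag

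These windows were searched on both strands for AP-1 (TGANTCA), GRHL (AACNGGTT), KLF (CACCC), TATA box (TATAAA) and p53 half-site motifs. LCE1F and FXYD3 each held 3 KLF matches, and ABCA12 held 1. KLF letters occurred in 54.7% of 35116 promoter windows of this length, so their presence does not set these genes apart. ABCA12 held the p53 half-site letters at positions -82 to -73 from the start, which 5.57% of all windows held. The letters of the AP-1 (6.57% of windows), GRHL (1.49%) and TATA box (10.7%) motifs were not in the 3 windows. A second RefSeq start of ABCA12 held no match to any motif searched. A match describes the letters only.

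Depth ranged from 12589707 to 30663463 reads on listed genes per library. SPARCLE stood at 26.9 ± 0.565 TPM (SD, n = 2) in OE control and 13.6 ± 0.183 TPM in OE dox cells, and had 0 reads in WT control and KO control cells. With 3 reads in WT dox and 5 in KO dox cells, its level could not check the KO label. CDKN1A, a p53 target, went from 91.6 to 751 TPM in WT cells with dox, and MDM2 from 22.5 to 226 TPM. Of colon epithelium markers, EPCAM was at 116 to 154 TPM in the 6 groups and CDX2 at 1.43 to 4.29 TPM, whereas 9 of 18 markers were matched to no row. Basal keratinocyte markers were mixed, with ITGB4 at 27.4 to 120 TPM, CDH3 at 44.9 to 86.0 TPM, LAMB3 at 39.2 to 94.2 TPM, KRT15 at 18.3 to 23.8 TPM and KRT14 at 0.111 to 0.558 TPM, and KRT5 and TP63 matched to no row. Of 13 leukocyte markers 2 were matched to a row, and these summed to at most 1.49 TPM in any library.

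With dox, ABCA12, FXYD3 and GALNT5 stood 11.2-fold to 119-fold higher than in control medium across WT, KO and OE cells, and LY6D 16-fold to 20.7-fold, the lowest of these on 3 control reads. LCE1F, with 0 to 1 read in each control library, stood at least 9.15-fold higher in WT and at least 38.2-fold higher in OE cells. SLPI stood 2.42-fold higher in WT cells and moved little in KO and OE cells. All 6 had both dox libraries above both control libraries in WT cells, where 44.0% of all genes tested did. The counts were 5 of 6 in KO cells (28.3% of all genes) and 6 of 6 in OE cells (34.2%), and since the genes were chosen on this contrast nothing is read from these counts. The median difference of the 6 genes on the log2(TPM + 1) scale was 3.32 in WT, 3.54 in KO and 3.65 in OE cells, against 0.17, -0.01 and 0.11 for all genes tested. In RNA from whole cultures, more cells with a transcript and more transcript per cell cannot be told apart. Levels below are TPM, a measure of transcript abundance corrected for gene length and library size, log2 differences are on the log2(TPM + 1) scale with limma's standard error (SE), and intervals on fold values are 95% exact binomial intervals of the recovered reads that cover counting error only.

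**Figure D1:**
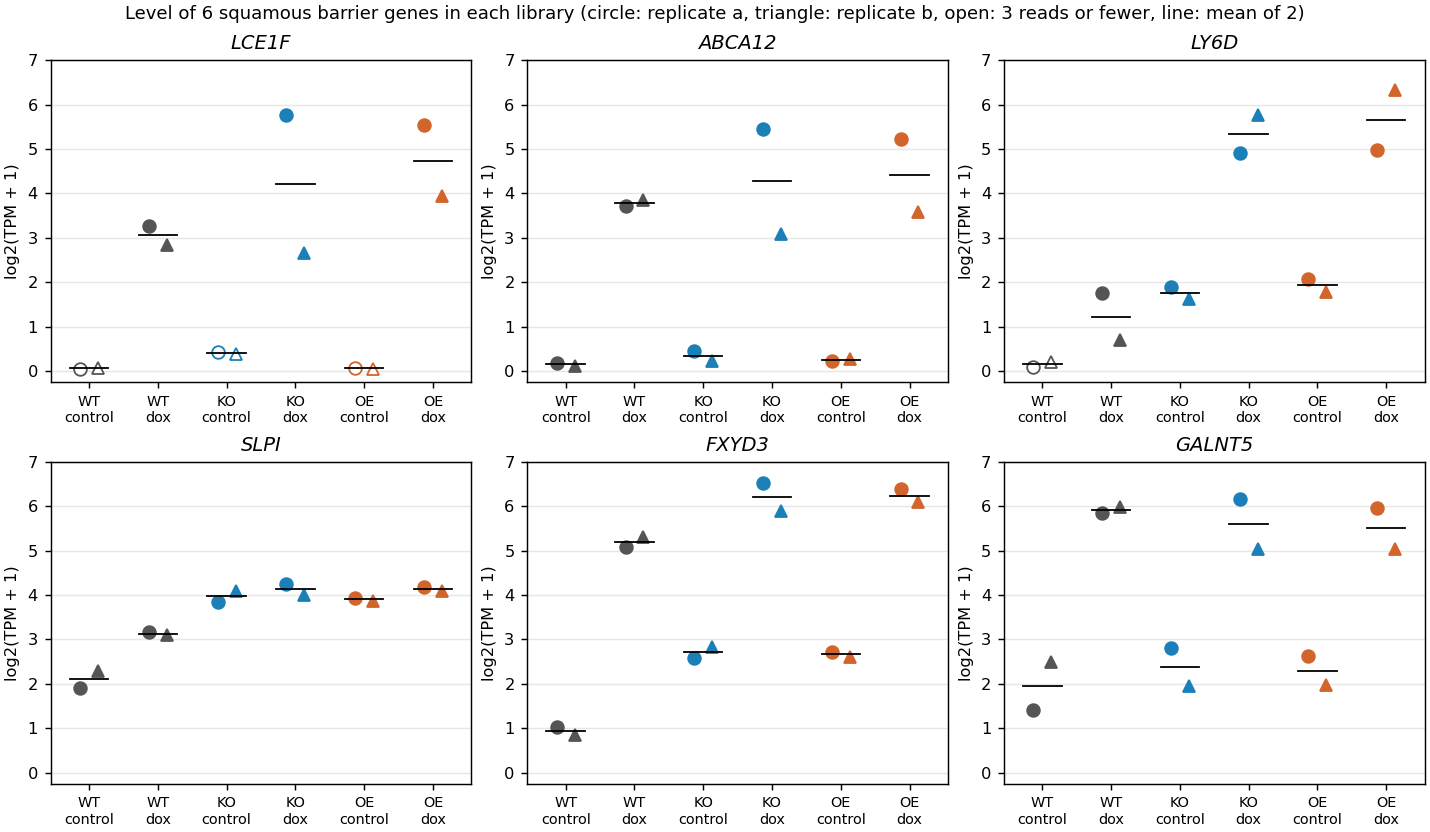
Level of each gene in each of 12 libraries, as log2(TPM + 1), by kind of cell and medium; circles are replicate a, triangles replicate b, open symbols 3 reads or fewer, and lines the mean of 2 libraries. LCE1F and ABCA12 are near 0 in every control library, LY6D steps up both with dox and with the change of cell, and SLPI is level across the 4 KO and OE groups.

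LCE1F was almost silent without dox. It had 0 reads in both WT control and both OE control libraries and 1 read in each KO control library, all under the floor of 3 reads, which corresponds to 0.607 to 0.972 TPM in these libraries. With dox it was at 8.67 and 6.19 TPM in WT replicates a and b (49 and 39 reads), 53.4 and 5.29 TPM in KO (350 and 42 reads), and 45.2 and 14.4 TPM in OE (307 and 113 reads). All 6 dox libraries were therefore above all 6 control libraries, with the KO pair far apart and the KO replicate b below both WT dox libraries. Against the floor per library, LCE1F was at least 9.15-fold higher with dox in WT cells and at least 38.2-fold higher in OE cells. In KO cells, with 2 control reads in all, the ratio was 97.6 (95% interval 26.8 to 809).

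ABCA12 followed the same course from a better measured baseline. In control medium it was at 0.142 and 0.0877 TPM in WT, 0.368 and 0.164 TPM in KO, and 0.171 and 0.209 TPM in OE cells, from 7 to 34 reads a library. With dox it was at 12.2 and 13.5 TPM in WT, 42.7 and 7.54 TPM in KO, and 36.6 and 10.9 TPM in OE cells, from 1593 to 7378 reads. Every dox library was above every control library, while the 3 dox groups overlapped each other. The fold with dox was 109 (73.0 to 170) in WT, 89.4 (67.7 to 121) in KO and 119 (87.5 to 166) in OE cells. The log2 differences were 3.63, 3.94 and 4.15, each with an SE of 0.61.

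LY6D (ENSG00000167656, chromosome 8 from 142784880 to 142786592, minus strand) had a low level in WT cells in both media and a high one in KO and OE cells with dox. It was at 0.0592 and 0.159 TPM in WT control (1 and 2 reads) and at 2.36 and 0.626 TPM in WT dox (58 and 17 reads). In control medium it was at 2.69 and 2.10 TPM in KO and 3.23 and 2.43 TPM in OE cells. The KO levels overlapped WT dox, and both OE libraries were above both WT dox libraries. With dox it reached 28.9 and 53.5 TPM in KO and 30.3 and 79.3 TPM in OE cells, above all 8 other libraries. The ratio of dox to control was 16 (5.26 to 79.2) in WT, 17.9 (14.2 to 22.8) in KO and 20.7 (16.9 to 25.6) in OE cells, the WT value resting on 3 control reads. On the log2(TPM + 1) scale, which understates changes of low genes, the differences were 1.08, 3.58 and 3.72 (SE 0.45).

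SLPI differed from the other 5 genes in that dox moved it little outside WT cells. It was at 2.76 and 3.91 TPM in WT control and at 7.93 and 7.57 TPM in WT dox libraries, a fold of 2.42 (1.7 to 3.50). In KO cells it was at 13.3 and 16.1 TPM without and 18.0 and 15.0 TPM with dox, which overlapped, for a ratio of 1.11 (0.929 to 1.33). In OE cells it was at 14.3 and 13.6 TPM without and 17.2 and 15.9 TPM with dox, for a ratio of 1.19 (0.997 to 1.42), an interval that includes 1. The label of a gene raised by doxorubicin thus held for SLPI in WT cells, and in KO cells the data did not bear it out. SLPI reads were few, 20 to 208 a library.

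FXYD3 was high with dox over a low baseline in WT cells and a higher one in KO and OE cells. Its control levels were 1.05 and 0.803 TPM in WT, 4.96 and 6.14 TPM in KO, and 5.53 and 5.12 TPM in OE cells. With dox they were 32.8 and 38.5 TPM in WT, 90.7 and 57.9 TPM in KO, and 82.5 and 67.1 TPM in OE cells. The 4 KO and OE libraries were above both WT libraries in each medium, and all dox libraries were above all control libraries. The fold with dox was 37.8 (29.7 to 48.8) in WT, 13.1 (11.8 to 14.5) in KO and 14.1 (12.7 to 15.6) in OE cells.

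GALNT5 showed the dox step without a step between kinds of cell. Its control levels were 1.64 and 4.58 TPM in WT, 5.98 and 2.89 TPM in KO, and 5.17 and 2.92 TPM in OE cells. With dox they were 56.7 and 62.2 TPM in WT, 70.2 and 31.6 TPM in KO, and 61.6 and 31.8 TPM in OE cells. The 3 control groups overlapped each other, as did the 3 dox groups, and no dox library was as low as any control library. The fold was 21.1 (19.2 to 23.4) in WT, 11.2 (10.3 to 12.1) in KO and 12 (11.1 to 13.1) in OE cells.

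In the order of group means, neighbouring groups within dox overlapped for LCE1F, ABCA12 and GALNT5, so these 3 genes gave no full order of WT, KO and OE cells with dox. Of the groups that were not neighbours, LCE1F had both OE dox libraries above both WT dox libraries. FXYD3 gave 4 separate steps, WT control, then OE and KO control together, then WT dox, then KO and OE dox together. SLPI gave WT control, WT dox, and then all 4 KO and OE groups with no gap between neighbours. For LY6D, WT control was lowest, WT dox overlapped KO control and KO control overlapped OE control, with OE control above WT dox, and KO and OE dox were highest.

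The next question was whether the genes differed between kinds of cell in the same medium. That SLPI and FXYD3 were higher in KO than in WT cells in control medium was known when the genes were chosen, so their calls there are a description and no independent support. In control medium SLPI was 4.6-fold (3.26 to 6.63) higher in KO than in WT cells, and FXYD3 was 5.87-fold (4.53 to 7.72) higher. The log2 differences were 1.86 ± 0.23 (SE) for SLPI, with a limma adjusted p = 0.00428, and 1.76 ± 0.25 for FXYD3, with a limma adjusted p = 0.0147. In OE cells the values were close to these. SLPI was 4.34-fold (3.08 to 6.24) higher than in WT cells, a log2 difference of 1.80 ± 0.23 with a limma adjusted p = 0.0050, and FXYD3 was 5.57-fold (4.30 to 7.31) higher, a log2 difference of 1.72 ± 0.25 with a limma adjusted p = 0.0156. The KO and OE comparisons share the WT libraries and are not independent of each other. Thus 2 of 6 genes were called higher in each comparison, where 0.0328% of all genes tested were (5 of 15256). Since that pattern was known for both genes in KO cells and the OE comparison shares its WT libraries, nothing is read from these counts. The median difference of all genes was 0.20 for KO and -0.04 for OE.

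Each of these 4 calls was lost without particular libraries, where the lone library left in a group is assumed to vary like the other groups. For SLPI in KO, the limma adjusted p was 0.0762 without WT control a and 0.0547 without KO control b. For FXYD3 in KO, it was 0.0762 and 0.148 without WT control a and b, and 0.0743 and 0.120 without KO control a and b. For SLPI in OE it was 0.0819 without WT control a, and 0.0863 and 0.0972 without OE control a and b. For FXYD3 in OE it was 0.0819 and 0.181 without WT control a and b, and 0.172 and 0.204 without OE control a and b. The differences themselves hardly moved, at 1.61 or more in each of these fits. Fitted on the compared groups alone, the limma adjusted p was 0.158 for SLPI and 0.212 for FXYD3 in KO, and 0.060 for both in OE. By voom on recovered reads it was 0.113 and 0.0732 in KO and, for SLPI in OE, 0.0582.

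LY6D in control medium had a ratio of 26.5 (8.72 to 131) in KO and 30.5 (10.1 to 150) in OE cells against the 3 reads of both WT libraries. Its log2 differences of 1.61 ± 0.45 and 1.78 ± 0.45 missed the threshold, with limma adjusted p = 0.396 and 0.303. With a pseudocount of 0.1 in place of 1 they were 3.61 and 3.84, with limma adjusted p = 0.0253 and 0.0166, and the OE difference was also called when only the compared groups were fitted (0.0316). LCE1F, ABCA12 and GALNT5 differed by 0.44 or less on the log2 scale in both comparisons, and none was called. Their SEs of 0.46 to 0.73 leave room for differences of that size or larger. In all, 4 of 6 genes, ABCA12 among them, had every KO and OE control library above both WT control libraries, against 10.6% of all genes tested. SLPI and FXYD3 are among the 4 and were chosen with their KO difference known. The ABCA12 ratio in OE cells was 1.63 (0.959 to 2.81), an interval that includes 1. Nothing is read from this count.

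With dox, LY6D was the 1 gene of the 6 that passed the threshold between kinds of cell. It was 29.6-fold (23.5 to 37.8) higher in KO and 39.5-fold (31.4 to 50.3) higher in OE cells than in WT cells. The log2 differences were 4.11 ± 0.45, with a limma adjusted p = 0.00144, and 4.42 ± 0.45, with a limma adjusted p = 0.000518. LY6D was called in 12 of 12 alternatives for each comparison, with adjusted p from 3.32e-05 to 0.0367 for KO and from 9.5e-26 to 0.0183 for OE. The value of 9.5e-26 is far below the 0.000518 of the fit of all libraries, and nothing is read from its size. Thus 1 of 6 genes was called in each comparison, where 0.111% of all genes tested were called higher for KO and 0.0852% for OE.

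SLPI and FXYD3 kept both KO and both OE libraries above both WT libraries with dox, but by less. SLPI was 2.12-fold (1.75 to 2.56) higher in KO and 2.14-fold (1.77 to 2.59) higher in OE cells, with log2 differences of 0.99 ± 0.23 and 1.00 ± 0.23 and a limma adjusted p = 0.147 for both. FXYD3 was 2.03-fold (1.96 to 2.11) and 2.08-fold (2.0 to 2.15) higher, with log2 differences of 1.01 ± 0.25 and 1.05 ± 0.25 and limma adjusted p = 0.218 and 0.180. Neither passed the threshold. With small RNA genes taken out of the TPM total, SLPI passed in KO (limma adjusted p = 0.0425) and OE (0.0299) and FXYD3 passed in OE (0.0454). With LY6D, 3 of 6 genes had every KO and OE dox library above both WT dox libraries, against 4.34% of all genes tested. SLPI and FXYD3 were chosen with their KO difference in control medium known, so nothing is read from this count.

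**Figure D2:**
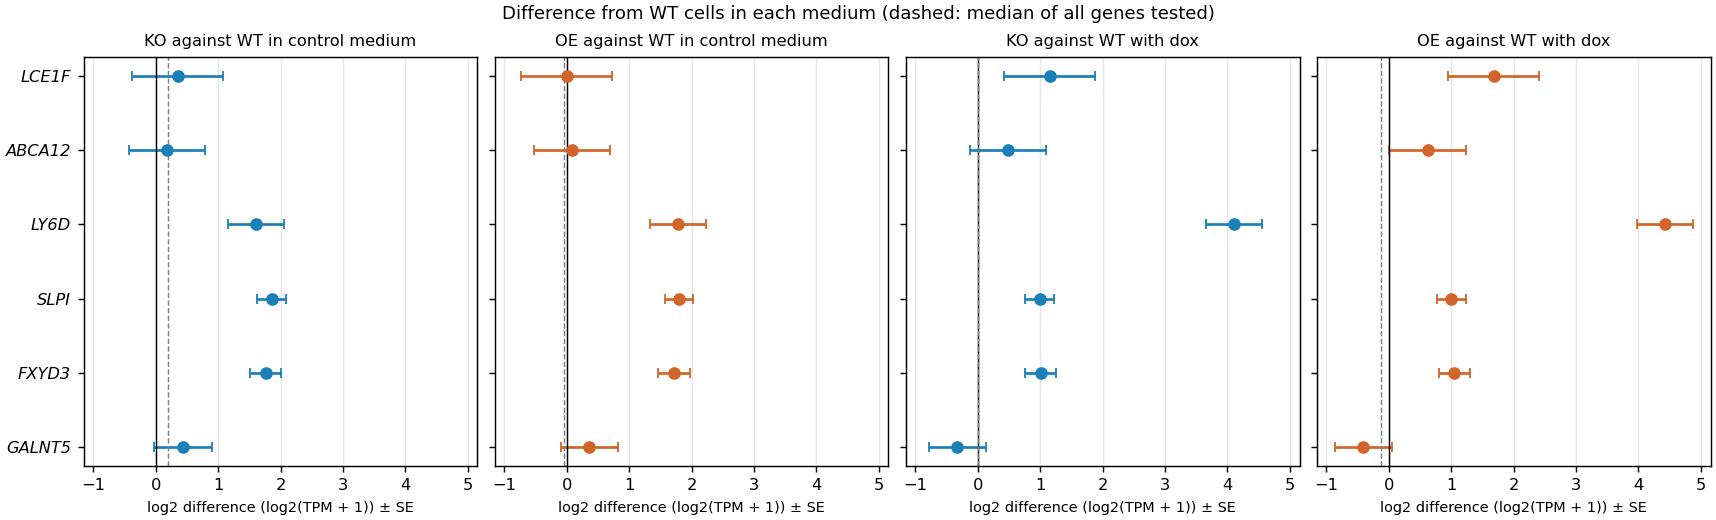
Difference of KO and OE from WT cells in each medium for the 6 genes, as log2(TPM + 1) differences with SE bars from limma; the dashed line is the median of all genes tested. SLPI and FXYD3 stand near 1.8 in control medium and near 1 with dox, and LY6D stands above 4 with dox.

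LCE1F, ABCA12 and GALNT5 did not pass the threshold with dox either when all libraries were fitted together. The log2 differences from WT were 1.15 ± 0.73 in KO and 1.68 ± 0.73 in OE for LCE1F, and 0.48 ± 0.61 and 0.62 ± 0.61 for ABCA12. GALNT5 stood at -0.33 ± 0.46 and -0.41 ± 0.46. For ABCA12 and GALNT5 in both comparisons, and for LCE1F in KO, the sign turned when particular libraries were left out. Without KO dox replicate a, LCE1F stood at -0.41 and ABCA12 at -0.70 in KO against WT, and without OE dox replicate a ABCA12 stood at -0.21 in OE. Without KO dox replicate b, LCE1F stood at 2.71 and was called (limma adjusted p = 0.0314). In OE cells both LCE1F libraries were above both WT libraries, the difference stayed above 0 with any 1 library left out (0.89 to 2.47), and it was called when only the compared groups were fitted (limma adjusted p = 0.00134).

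Whether the dox difference itself depended on the kind of cell was tested by interaction terms, and none of the 6 genes passed in either one. LY6D had the largest terms of the 6, 2.50 ± 0.63 for KO and 2.64 ± 0.63 for OE with a limma adjusted p = 1.00 for both. SLPI stood at -0.87 ± 0.33 and -0.80 ± 0.33. LY6D and SLPI were the 2 of 6 genes under 0.05 before adjustment in each term. Among all genes 194 and 150 were under 0.05 unadjusted, 1.27% and 0.983%, and 0.00655% were called in either direction. The LY6D term is on the log2(TPM + 1) scale, whereas the dox ratios of LY6D differed less, from 16 to 20.7. Voom on recovered reads called none of the 6 in either term.

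The 2 replicates of the KO and OE dox groups lay further apart for LCE1F and ABCA12 than for nearly all genes. In KO dox, replicate a was 10.1 times replicate b for LCE1F and 5.66 times for ABCA12, and 0.01% and 0.10% of all genes had a larger gap in that direction. In OE dox the ratios were 3.13 and 3.35, with 0.55% and 0.38% of genes above them. LY6D went the other way, at 0.540 in KO dox and 0.383 in OE dox, with 0.90% and 0.23% of genes below it. GALNT5 had ratios of 2.22 and 1.94, FXYD3 of 1.57 and 1.23, and SLPI of 1.20 and 1.08. In WT dox, by contrast, ABCA12, FXYD3 and GALNT5 were slightly lower in replicate a, while LY6D was 3.77 times higher in it. Leaving out KO dox replicate a lowered the dox difference in KO cells from 3.8 to 2.24 for LCE1F and from 3.94 to 2.76 for ABCA12.

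**Figure D3:**
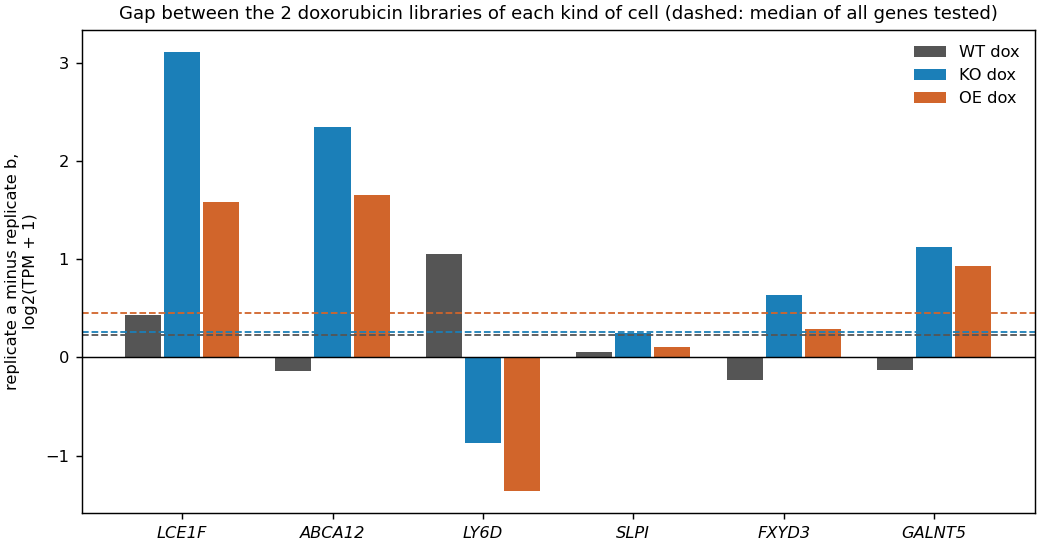
Replicate a minus replicate b in the 3 dox groups for each of the 6 genes, as a difference of log2(TPM + 1); dashed lines are the medians of all genes tested in each group (0.23 to 0.45). LCE1F and ABCA12 stand highest in KO dox at 3.11 and 2.35, and LY6D is below 0 in KO and OE dox at -0.87 and -1.36.

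Genes of like pattern were sought among 12572 protein-coding genes by the root-mean-square difference of log2(TPM + 1) profiles, each centred on its mean over the 12 libraries. Among the 6, LCE1F and ABCA12 were nearest each other, at 0.38. After it, LCE1F had TLCD1 (0.69), S100A2 (0.71) and its own family member LCE1C (0.72). LCE1C repeated the replicate gap, with 23.0 and 1.95 TPM in KO dox and 19.1 and 4.09 TPM in OE dox, although reads shared between the copies cannot be set aside. ABCA12 had TLCD1 (0.47) and KRT20 (0.58). GALNT5 had TLCD1 and ITPRIPL2 (both 0.29) and KRT20 (0.31), and FXYD3 had CYSRT1 (0.55), ABCC2 (0.56) and KRT20 (0.58). KRT20, a keratin of differentiated intestinal epithelium, was thus among the nearest genes of 3 of the 6, with group means from 0.270 to 1.49 TPM in control and 18.8 to 25.3 TPM in dox medium.

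LY6D and SLPI had neighbours of their own. The nearest to LY6D were IFI27 (0.79) and OAS1 (0.97), both known as interferon-stimulated, and LCN2 (1.08), which encodes lipocalin-2. IFI27 was at 1.57 and 1.96 TPM in WT control, 2.85 and 8.91 TPM in WT dox, 133 and 138 TPM in KO dox and 140 and 180 TPM in OE dox. The nearest to SLPI were GCHFR (0.28), PRKCQ and POLM (both 0.31). POLM, a DNA polymerase of end joining, was at 2.66 and 3.92 TPM in WT control and 8.0 and 5.4 TPM in WT dox. Across the 8 KO and OE libraries POLM was at 7.25 to 14.3 TPM, a range that overlapped WT dox. Likeness over 12 libraries is a description, and these genes share library, depth and scaling with the members.

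**Figure D4:**
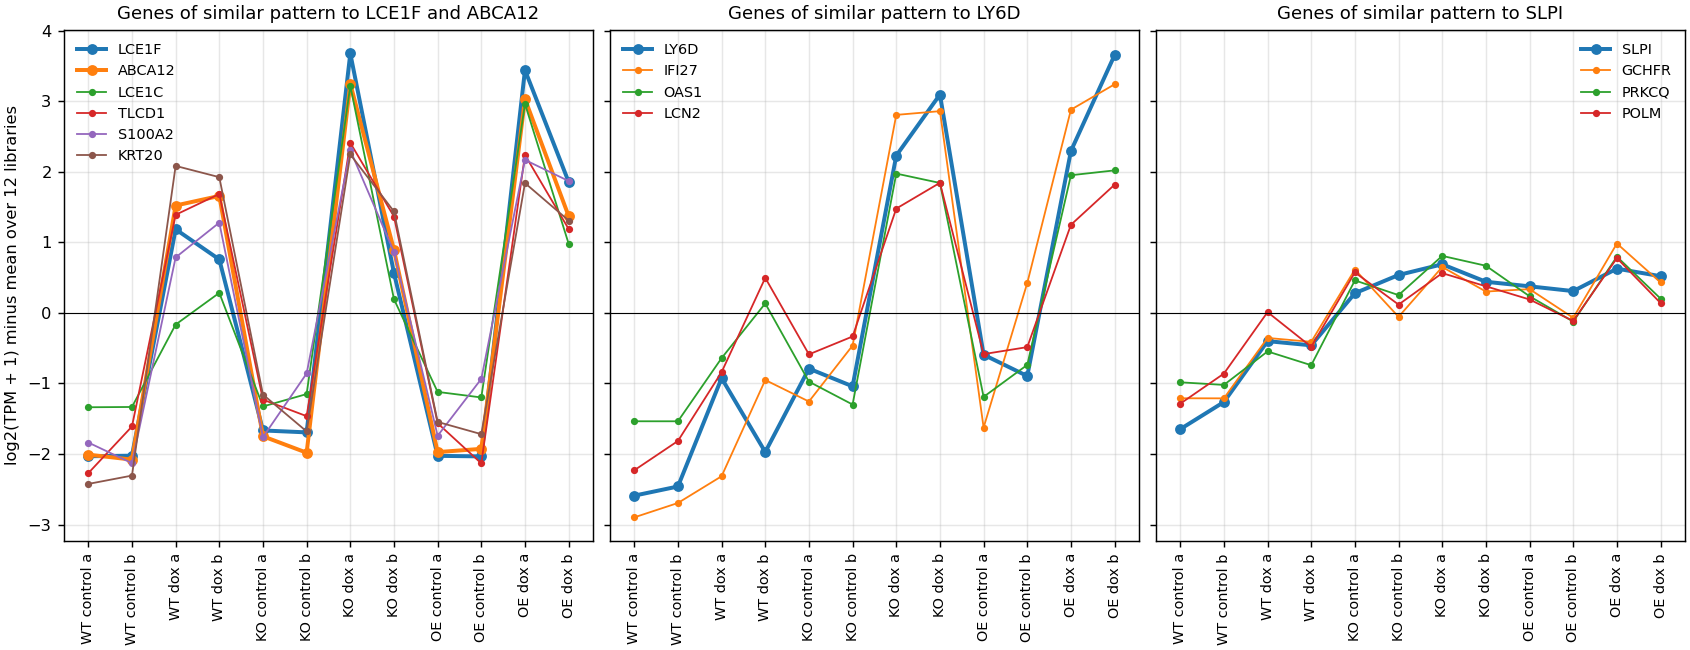
Profiles of log2(TPM + 1), each minus its mean over the 12 libraries, for LCE1F with ABCA12, LY6D and SLPI (thick lines) and the genes nearest them (thin lines). The LCE1F and ABCA12 set peaks in KO dox a and OE dox a, apart from KRT20. KRT20 is higher in WT dox a and b (26.7 and 23.8 TPM) than in OE dox a (22.4 TPM). The LY6D set is high in all 4 KO and OE dox libraries, and the SLPI set is low in WT control.

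Other genes of the barrier and of the members' families were read from 10 lists, 134 tested genes in all once the 6 were left out. With dox, 39 (29.1%) were called higher and 16 (11.9%) lower in WT cells, against 19.6% and 12.6% of all genes tested. In KO cells 29 (21.6%) were higher and 17 (12.7%) lower, against 9.9% and 14.3%, and in OE cells 29 (21.6%) and 15 (11.2%), against 12.4% and 10.6%. Their median difference was 0.45 in WT, 0.23 in KO and 0.26 in OE cells, against 0.17, -0.01 and 0.11 for all genes. The counts of higher genes fell to 21, 23 and 24 in WT without WT control a, WT dox a and WT dox b. They fell to 12 and 13 in KO without KO control b and KO dox a, and to 13 and 16 in OE without OE control b and OE dox a. Between kinds of cell limma called 0 of the 134 in each of the 4 comparisons, with 18 to 22 under 0.05 unadjusted, and voom called 0 to 1. Other limma settings called up to 2 higher, as in KO control cells with a pseudocount of 0.1, and 2 higher and 2 lower in OE dox cells with only the compared groups.

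**Figure D5:**
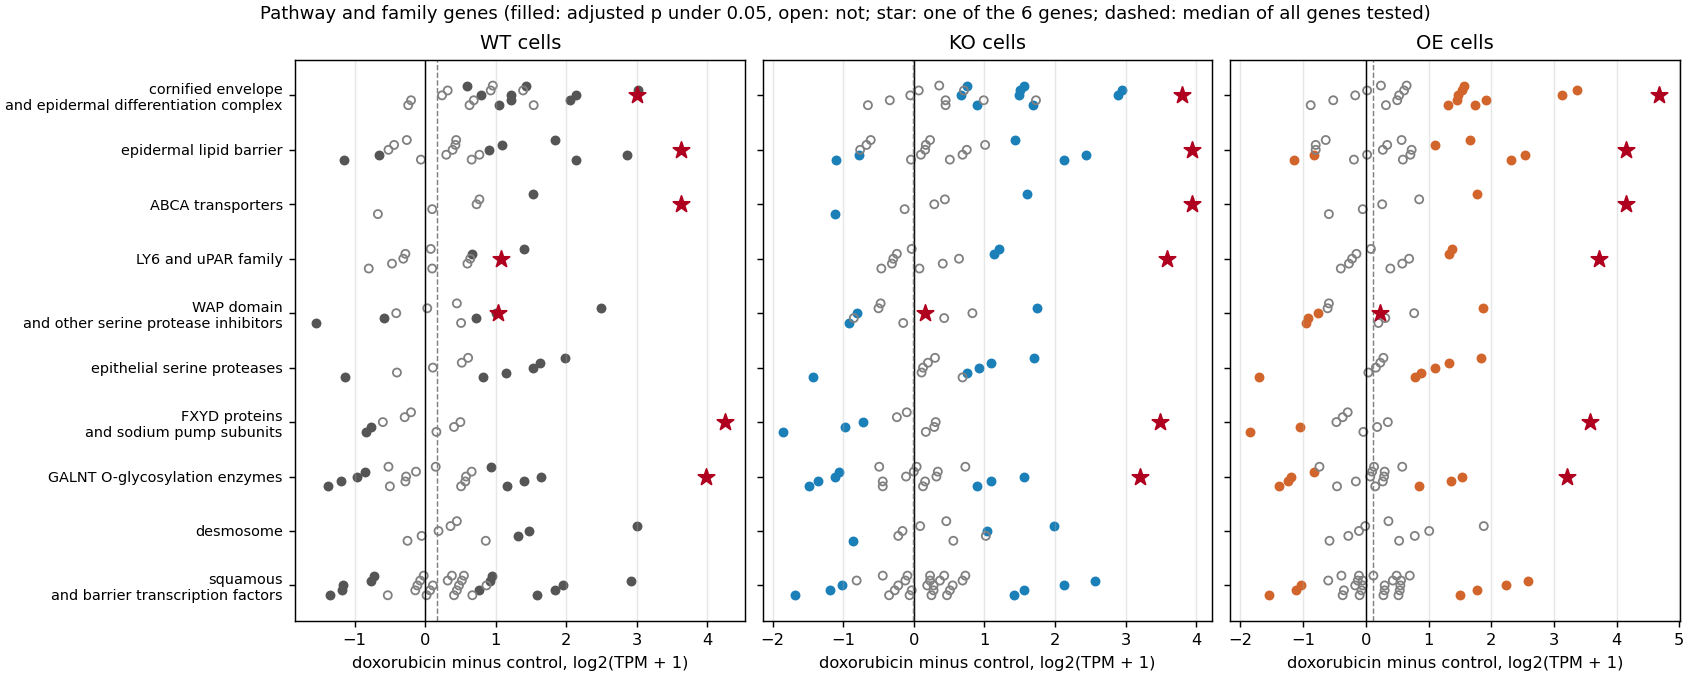
Difference with dox for each tested gene of 10 lists in WT, KO and OE cells, as log2(TPM + 1) differences; filled points have an adjusted p under 0.05, open points do not, red stars are the 6 genes, which were not tested, and the dashed line is the median of all genes. The cornified envelope list has 9 of 19 filled points to the right of 0 in each panel, and the sodium pump list has none there. The 9 are not the same genes in each panel.

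Cornified envelope and epidermal differentiation complex genes, the group of LCE1F, had 9 of 19 tested genes higher with dox in each kind of cell. They were not the same 9 genes. Of the 70 genes listed 23 had a row. With all libraries fitted on the log2(TPM + 1) scale, the called genes in WT cells were S100 genes, PADI3 and HSPB1. LCE1B, LCE1C and LCE1E were called in KO and OE cells only. They passed the low-value filter through the dox libraries alone and may share reads with LCE1F. CNFN, PPL, EVPL and TGM1, also listed, were called in no kind of cell and stood at -0.24, 0.24, 0.96 and -0.2 in WT. With all libraries in the fit limma called 0 lower, as did voom, and 0 lower genes were under 0.05 before adjustment, while 1 was called lower in OE cells with only the compared groups and 1 in KO cells without KO dox a. With only the compared groups 15 of 19 were higher in WT cells. S100A2 rose from 5.22 to 49.8 TPM in WT cells (log2 difference 3.02 ± 0.43, limma adjusted p = 0.000551), and S100A3 and S100A4, like it calcium-binding proteins of the chromosome 1 cluster, rose by 2.14 ± 0.28 and 2.05 ± 0.27. S100A6, at 1391 TPM the most abundant of the list in WT control cells, rose by 1.22 ± 0.19. The count was 4 without WT dox a in WT cells, 4 without KO control b and 3 without KO dox a in KO cells, and 4 without OE control b and 4 without OE dox a in OE cells. LCE1F stood at 3.0 in WT, close to S100A2, and above every other gene of the list in KO and OE cells. It was chosen for being high with dox, so nothing is read from its rank.

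Epidermal lipid genes, the group of ABCA12, had 5 of 17 higher and 2 lower in WT cells. KO cells had 3 higher and 2 lower, and OE cells 4 higher and 2 lower. The fatty acid transporter SLC27A4 rose by 2.14 ± 0.41 in WT, and the glycerol and water channel AQP3 by 1.84 ± 0.41. UGCG, which makes glucosylceramide, fell by 0.66 on the log2 scale in WT cells and by 1.10 in KO cells. Leaving out any 1 of the 4 libraries gave 2 to 3 higher genes in WT cells, 5 were higher in KO without KO dox b, and 2 in OE without OE control b or OE dox a. Voom called 6 higher in KO cells, and 4 lower in WT and OE cells. Of the 5 other ABCA transporters tested, ABCA1, a cholesterol exporter, was the 1 called higher, by 1.53 ± 0.40 in WT, a call lost without WT control a or WT dox b.

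Among 10 other LY6 and uPAR family genes, LYNX1 and PSCA were called higher in each kind of cell. LYNX1 rose by 1.40 ± 0.28 in WT, 1.20 ± 0.28 in KO and 1.38 ± 0.28 in OE cells. PSCA rose by 0.67 ± 0.22 in WT, 1.13 ± 0.22 in KO and 1.33 ± 0.22 in OE cells, from 0.195 to 0.917 TPM in WT and from 0.577 to 2.95 TPM in OE cells. LY6E, the most abundant of them after CD59, stood at 0.60 ± 0.23 in WT (limma adjusted p = 0.0635). The count was 1 without WT control a, WT dox a, KO control b, KO dox a or OE control b, and voom also called 1 lower in WT cells.

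Of 9 other serine protease inhibitors, the group of SLPI, 3 were higher and 2 lower with dox in WT cells. KO cells had 1 higher and 2 lower, and OE cells 1 higher and 3 lower. SERPINB5 (maspin) rose from 17.8 to 104 TPM in WT cells, by 2.49 ± 0.38, and by 1.75 ± 0.38 in KO and 1.86 ± 0.38 in OE cells. WFDC2, which shares the WAP domain with SLPI, rose by 0.72 ± 0.22 in WT and stood at -0.15 ± 0.22 in KO and 0.20 ± 0.22 in OE cells. SPINK2 fell by 1.55 on the log2 scale in WT. The proteases on the other side had 5 of 10 higher and 1 lower in WT and OE cells and 4 and 1 in KO cells. The kallikreins KLK5, KLK6 and KLK7, which act in shedding of the epidermal surface, rose by 1.63 ± 0.27, 1.99 ± 0.32 and 1.53 ± 0.28 in WT, and PRSS8 (prostasin) fell by 1.14. Without WT control a or WT dox b 1 inhibitor was higher in WT, and without KO dox a or OE dox a the count was 0 in KO or OE, while voom called 3 higher in KO. The protease count was 2 without KO control a, 1 without KO control b or KO dox b, and 2 to 3 in OE cells without any 1 of the 4 libraries.

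The sodium pump genes, whose product FXYD3 regulates, had 2 to 3 members lower with dox. Of 8 other FXYD proteins and pump subunits tested, limma called 0 higher in the 3 kinds of cell, with 1, 0 and 0 higher under 0.05 before adjustment, and voom called 0. Without small RNA genes in the TPM, 1 was called higher in WT cells. The lower ones were 2 in WT, 3 in KO and 2 in OE cells. The pump subunit ATP1B1 fell by 0.77 in WT, 0.98 in KO and 1.05 in OE cells on the log2 scale. FXYD7 fell by 0.84 in WT and 0.72 in KO cells, at levels near 1 TPM. FXYD5 stood at 0.41 ± 0.24 in WT. The lower count was 0 in WT without WT control a or WT dox b and 1 without WT control b or WT dox a, 1 in KO without KO dox a, and 0 and 1 in OE without OE control a and OE dox a.

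O-glycosylation enzymes, the group of GALNT5, went both ways, with 4 of 18 higher and 4 lower in WT and 3 and 4 in KO and OE cells. GALNT7 rose by 1.40 ± 0.32 and GALNT18 by 1.16 ± 0.29 in WT, and ST6GALNAC2, a sialyltransferase, by 1.65 ± 0.32. GALNT3 fell by 1.38 in WT, 1.49 in KO and 1.39 in OE cells, and GCNT1, which branches the first sugar, by 1.20 in WT. GALNT5 had the largest difference of the tested genes on its list in all 3 kinds of cell. It was chosen for being high with dox, so nothing is read from this rank. The counts were 1 higher and 1 lower without WT control a or WT dox b, 0 higher and 2 lower without KO control b or OE control b, 1 higher without KO dox a or OE dox a, and 2 lower without OE control a. In WT cells 7 were higher without small RNA genes in the TPM, and voom called 7 lower.

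Desmosome genes had 3 of 9 higher in WT, 2 in KO and 0 in OE cells by limma. In OE cells 2 were higher under 0.05 before adjustment, and voom called 2. DSC3, a desmosomal cadherin of stratified epithelia, rose by 3.0 ± 0.65 in WT (limma adjusted p = 0.00485), and stood at 1.88 ± 0.65 in OE cells (0.0523). The count was 1 without WT control a or WT dox a, 0 without KO control b or KO dox a, 1 without KO control a, and 2 in OE without OE dox b. Of the desmosome genes 1 was lower in KO cells, and 4 were higher there without small RNA genes in the TPM. Of 29 squamous and barrier transcription factors, 7 were higher and 5 lower in WT, and 4 and 3 in KO and OE cells. EHF rose by 2.92 ± 0.42, OVOL1 by 1.96 ± 0.32 and CEBPA by 1.84 ± 0.35 in WT cells, while KLF4 fell by 1.35 and GRHL1 by 1.17 on the log2 scale. With all libraries fitted, GRHL1 was called lower in WT cells only. The other GRHL factors went the other way. GRHL3 was called higher in each kind of cell, by 1.59 ± 0.31 in WT, and GRHL2 in WT cells only, by 0.95 ± 0.28. The higher count was 4 without WT control a or WT dox a, and the lower count was 1 without WT control a, 3 without WT control b, 0 without WT dox b, 1 without KO control b and 1 without OE control b. Voom called 8 transcription factors higher in KO cells.

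Markers of other epithelial states moved beside these groups. Colon epithelium markers summed to 931 to 2043 TPM in control and 2589 to 3253 TPM in dox libraries, with 5 of 8 tested higher in WT and 2 in KO and OE cells. Of 14 suprabasal keratinocyte markers 6 were matched to a row. KRT1, KRT2, KRT4, KRT6A, KRT6B, KRT6C, KRTDAP and CALML5 were matched to no row. Of the 6 suprabasal markers tested, 2 were higher and 1 lower in each kind of cell. Their sum was 37.2 to 52.6 TPM in control and 38.1 to 56.9 TPM in dox libraries. KRT17 rose by 1.80 ± 0.33 in WT and KRT10, a keratin of differentiating epidermis, fell by 1.21. Basal keratinocyte markers had 3 of 6 higher in WT, COL17A1 by 3.14 ± 0.53, and summed to 165 to 280 TPM in control and 249 to 298 TPM in dox libraries. The colon count was 1 without KO control b or any 1 of the OE libraries, and the suprabasal count was 1 without WT control a, WT control b or WT dox a. Their part in the levels of the 6 genes was not tested.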

How the data were processed

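Total RNA libraries of HCT116 cells were made with a stranded kit, per the labels' protocols. The deposited values are log2 TPM, made by the authors. The build was hg38, per the submitters' processing notes, which list edgeR 3.12.1 in R 3.3.3, featureCounts, SAMtools 1.7 and HISAT2 2.0.4 in no order. Annotation, strand setting and low-value filter are not given in the sources used here, so reads of antisense partners cannot be told apart.

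With GENCODE v29 lengths, 15182 genes (91.7% of the 16564 identifiers found there) could be turned back into whole reads in all 12 libraries, once a small prior was taken off, to within 0.05 of a read. With shuffled lengths 5 could. A further 1477 took a length found by search. Reads ranged from 12589707 to 30663463 a library. Floors are 3 reads per library. A value at 0 reads is the prior count alone.

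Tests used log2(TPM + 1) of the 15256 genes that reached a TPM of 1 in 2 or more libraries. All 12 libraries entered 1 fit of 6 group means in limma 3.58.1 under R 4.3.3, with a variance trend, 6 residual and 7 prior degrees of freedom. A call means a Benjamini-Hochberg value under 0.05 over all genes, taken separately in each of 9 comparisons. P-values rest on the spread between biological replicates pooled over the 6 groups and moderated by the prior. They do not measure the spread of the 2 groups compared alone. On data simulated for KO against WT in control medium (15240 genes, 200 changed), 68% of 2-fold and 100% of 4-fold changes were recovered, with 22 false calls. The simulation gave every gene a dispersion of 0.025 and changed only genes with a mean TPM of at least 5. It therefore does not show what would be found for low genes, or for replicates as far apart as those of LCE1F, ABCA12 and LY6D. Alternatives were a pseudocount of 0.1, no filter, a mean TPM of at least 5, median-ratio scaling, the TPM without 316 small RNA genes (50.0% to 59.8% of TPM), only the groups compared, a replicate block, voom on recovered reads of 15240 genes, and leaving out each library.

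The 6 genes, the 16 gene lists and the comparisons were chosen with earlier results of these data known, among them that SLPI and FXYD3 were higher in KO than in WT cells in control medium. Named genes were the 6, per list the 3 of highest mean TPM and up to 3 called each way in WT cells with dox, per member the 3 of nearest profile, and SPARCLE, CDKN1A and MDM2. Some genes that this rule names are not reported here. Other genes were chosen after their values were seen. These include EPCAM, CDX2, KRT14, KRT15, GRHL2 and GRHL3. Of 2 fibroblast markers matched, 0 were called with dox by limma. All 10 p53 targets were called higher with dox in WT and OE cells and 8 in KO cells. GENCODE identifies SPARCLE under no identifier of its own here, and it was matched through the RefSeq gene table.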

Additional observations from a re-analysis of the deposited data

How the results depend on the processing

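Most values kept their direction and their side of the threshold: 123 of the group-level values under the alternatives, and 614 of those of single genes. The median dox difference of the 6 genes in WT cells was 4.75 with a pseudocount of 0.1 and 4.65 by voom, since low genes then count for more, and in KO cells it ranged from 2.70 to 3.79 with libraries left out. Of the 2 genes called in KO against WT cells in control medium, 0 were called with only the groups compared or by voom, and 0 to 1 with a library left out. Of SLPI and FXYD3, the 2 called in OE, 0 were called with only the groups compared, where LY6D was called instead. By voom 1 was called. Both OE calls were lost without particular libraries, as given above. With dox, 1 to 2 genes were called in KO with a library left out and 2 without small RNA genes. In OE 2 were called with median-ratio scaling, with only the groups compared and by voom, and 3 without small RNA genes. The list genes called higher with dox numbered 21 to 32 in WT, 12 to 28 in KO and 13 to 32 in OE cells with a library left out, and 19 in OE cells at a mean TPM of at least 5, where fewer genes were tested. Signs turned for small differences. The KO by dox term of LCE1F was -0.38 with a pseudocount of 0.1 and -0.20 by voom, and that of ABCA12 was -0.24 and -0.39, while the OE by dox term of ABCA12 was -0.01 by voom. With a library left out the KO by dox terms ranged from -0.75 to 2.36 for LCE1F and from -0.87 to 1.48 for ABCA12, and the OE by dox term of ABCA12 from -0.31 to 1.35. KO against WT with dox ranged from -0.41 to 2.71 for LCE1F, -0.70 to 1.66 for ABCA12 and -0.89 to 0.24 for GALNT5. OE against WT with dox ranged from -0.21 to 1.44 for ABCA12 and -0.88 to 0.05 for GALNT5. In control medium GALNT5 ranged from -0.10 to 0.98 in KO and from -0.18 to 0.90 in OE, and LCE1F from -0.01 to 0.00 in OE. Where these turned, the cause was not tested.

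The letters a and b were not a pairing in the labels. Differences between a and b correlated between groups at r from -0.389 to 0.81, the highest being between KO dox and OE dox. With a replicate block, 2 of the 6 genes were called in KO and 2 in OE against WT in control medium and 1 in each with dox, and 43, 36 and 31 list genes were higher with dox in WT, KO and OE cells. Depth limits LCE1F, LY6D and SLPI most, since their control libraries hold from 0 to 112 reads.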
